A study of Ciona robusta with 15 samples.

Results

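A set of 68 gene models of the ascidian Ciona robusta had fewer reads in every library of embryos given Brachyury (Bra) in their nervous system than in the control library of the same number. They were found among 15284 gene models. The value used was the log2 difference between a library given Bra and the same-numbered control, on normalised reads plus 1, within the deposited table that held both. The members were selected on these measured differences. Each had a mean of at least 50 normalised reads in control and a difference of -0.4 or lower in all 12 comparisons. The same control libraries were used in every deposited table, so the 12 comparisons were not independent. Of the gene models, 10481 reached the control minimum and 72 met the numeric rule. The rule left out 7 neural gene models by name, 4 of which met it. For scale, 166 of the 10481 gene models that reached the control minimum had a difference of 0.4 or more in all 12. Among the same 10481, 898 were below 0 in all 12 against 863 above 0.

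The study asked how Bra and its partners act together in notochord fate. Whole embryos were profiled by RNA sequencing at Hotta stage 19.5, a tailbud stage, in pools of 300 embryos raised at 21 °C. There were 5 groups of 3 libraries, and in all of them the plasmids were driven by the enhancer of the neural gene Etr, so the tissue that carried the factors was a part of each sample only. Bra+Foxa.a+Mnx embryos carried Etr1>Venus-Bra, Etr1>Foxa.a-Myc and Etr1>Mnx-HA. Bra+Foxa.a embryos carried Etr1>Venus-Bra and Etr1>Foxa.a-Myc, Bra+Mnx embryos Etr1>Venus-Bra and Etr1>Mnx-HA, and Bra embryos Etr1>Venus-Bra alone. Control embryos carried Etr1>H2B-Venus. The libraries held 17689915 to 26460260 reads on genes, as recovered from the deposited values. Beyond the words biological replicates, no label states how the libraries of a group were separated, so p-values measure the spread between these libraries, which may be partly technical.

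Bra is a T-box transcription factor that specifies the notochord, the axial rod of the chordate tail. Foxa.a is a forkhead factor and Mnx a homeodomain factor. In the ascidian tadpole the notochord lies beneath the dorsal nerve cord, and Bra is normally kept to notochord cells, so the plasmids placed it in a tissue that does not usually make it. Genes are given in the deposited tables as KH gene models without names, and 0 of the 68 identifiers could be matched in the reference table used here. The members are therefore given by identifier, without a name, role or sequence. Read counts are not scaled by gene length, and no level is compared between genes.

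Because the rule used every library against control, the next values describe the selection and are not evidence of a difference. The median log2 difference from control over the 68 was -1.29 in embryos with all 3 factors, -1.23 in Bra+Foxa.a embryos, -1.04 in Bra+Mnx embryos and -0.71 in Bra embryos, beside medians of -0.01, -0.03, -0.02 and -0.03 over all gene models that reached the control minimum. A mean reduction of at least 2-fold was seen in 59 members with Bra+Foxa.a+Mnx, 53 in Bra+Foxa.a embryos, 41 in Bra+Mnx embryos and 8 in Bra embryos. The 68 together took 0.0800% ± 0.0069 of the reads in Bra+Foxa.a+Mnx, 0.0851% ± 0.0013 in Bra+Foxa.a, 0.0967% ± 0.0160 in Bra+Mnx, 0.117% ± 0.0090 in Bra libraries and 0.198% ± 0.0105 in control libraries (SD, n = 3 each). In whole embryos, fewer cells that make a transcript and less transcript per cell cannot be told apart.

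The limma test within each deposited table called 49 members lower in Bra+Foxa.a+Mnx, where 1.16% of all genes tested were called lower. It called 52 in Bra+Foxa.a embryos (1.33% of all genes), 22 in Bra+Mnx embryos (0.394%) and 8 in Bra embryos (0.0703%). These counts follow from the selection and nothing is read from them. All 3 libraries lay below all 3 controls for 66 members in Bra+Foxa.a+Mnx, against 8.43% of all gene models that reached the control minimum. The same was so for 64 members in Bra+Foxa.a (9.58% of gene models), 64 in Bra+Mnx (7.14%) and 54 in Bra (3.25%). These counts without overlap also follow from the selection.

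**Figure D1:**
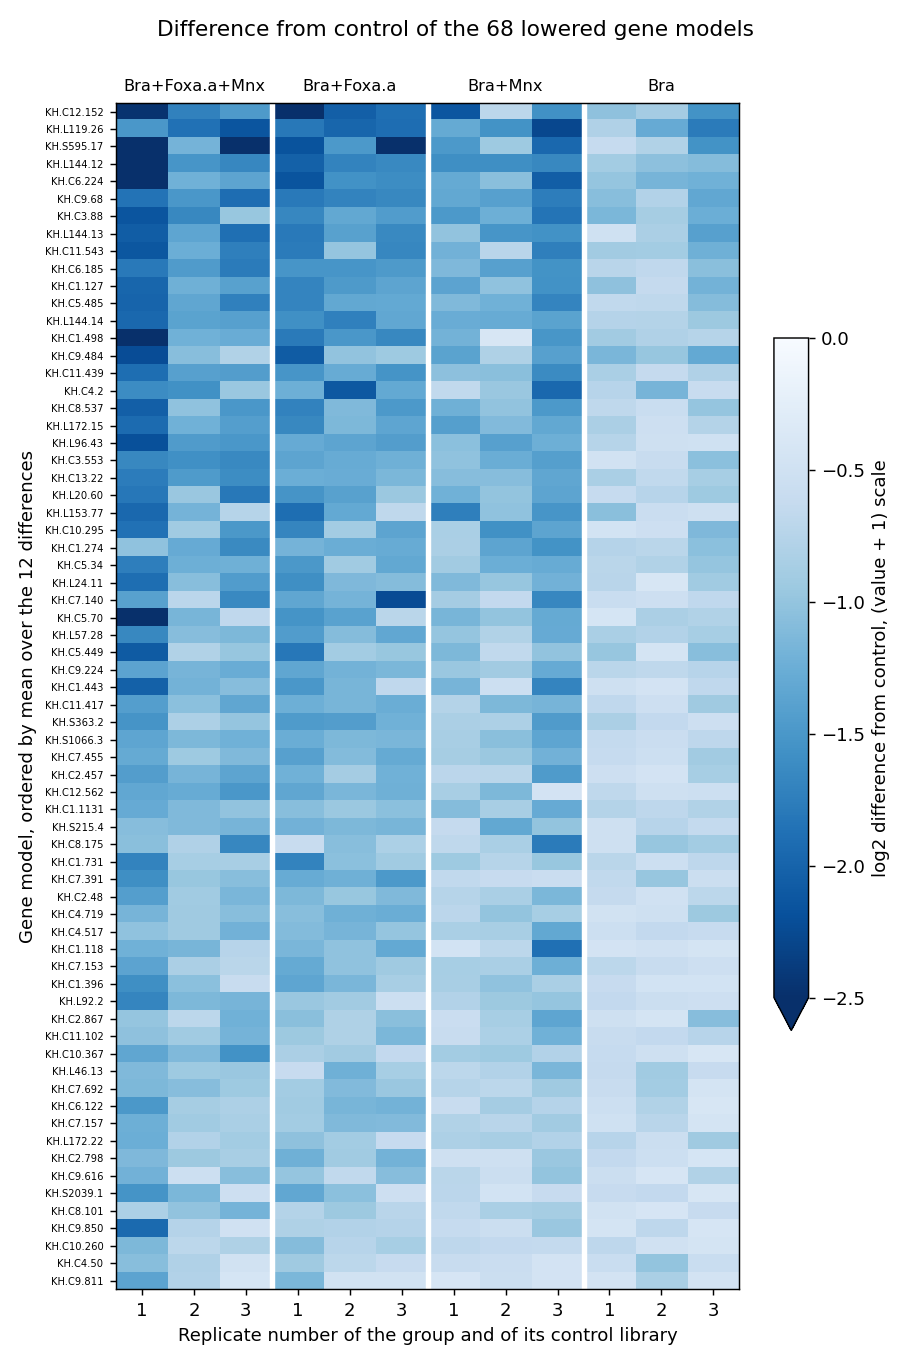
Log2 difference from the same-numbered control library for each of the 68 gene models (rows, ordered by their mean) in the 12 libraries given Bra (columns, by group and replicate number). Darker blue is lower, and the scale ends at -2.5. The Bra columns are the palest, with a median of -0.71, and the Bra+Foxa.a+Mnx columns hold a median of -1.29.

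The threshold was met least easily in the Bra group. The difference nearest to the limit came from a Bra library in 60 members, from Bra+Mnx in 7, from Bra+Foxa.a+Mnx in 1 and from Bra+Foxa.a in 0. Just inside the limit were KH.C1.498 and KH.S2039.1, both with a highest difference of -0.40, and KH.C6.122 with -0.40. Just outside were KH.S643.1 at -0.39, KH.C3.506 at -0.39 and KH.C9.602 at -0.39. A place near the limit can come from 1 library. KH.C1.498 had 21.3, 59.4 and 50.5 normalised reads in Bra+Foxa.a+Mnx, 40.8, 48.9 and 38.3 in Bra+Foxa.a, 62.0, 106 and 42.6 in Bra+Mnx, 76.2, 80.3 and 72.7 in Bra, and 143, 140 and 123 in control libraries. Only its second Bra+Mnx library was near the limit.

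Normalised reads here and below are on 1 scale rebuilt over the 15 libraries. The 4 members with the lowest mean difference were KH.C12.152, KH.L119.26, KH.S595.17 and KH.L144.12. KH.C12.152 had 17.2, 30.3 and 31.2 normalised reads in Bra+Foxa.a+Mnx, 9.24, 24.0 and 23.2 in Bra+Foxa.a, 22.1, 62.3 and 29.2 in Bra+Mnx, 48.3, 54.7 and 29.5 in Bra, and 99.6, 102 and 88.4 in control libraries. All 12 libraries given Bra were below all controls, and the Bra+Foxa.a libraries were below every Bra library. Its log2 fold change from control was -1.89 ± 0.30 in Bra+Foxa.a+Mnx, -2.41 ± 0.38 in Bra+Foxa.a embryos, -1.46 ± 0.38 in Bra+Mnx embryos and -1.16 ± 0.29 in Bra embryos (± standard error of the fit).

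KH.L119.26 had 34.4, 42.4 and 33.3 normalised reads in Bra+Foxa.a+Mnx, 27.7, 39.3 and 39.3 in Bra+Foxa.a, 39.9, 53.3 and 30.4 in Bra+Mnx, 56.7, 64.0 and 43.2 in Bra, and 98.7, 157 and 150 in control libraries. The groups with a partner overlapped one another, and no library given Bra reached the lowest control. KH.S595.17 had 21.3, 37.6 and 18.3 in Bra+Foxa.a+Mnx, 26.9, 30.7 and 18.1 in Bra+Foxa.a, 44.2, 45.3 and 29.2 in Bra+Mnx, 80.8, 50.0 and 39.0 in Bra, and 124, 87.1 and 116 in control libraries. Its Bra+Foxa.a libraries were all below its Bra libraries, while the first Bra library came close to the lowest control.

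KH.L144.12 has 2 neighbours by identifier in the set, KH.L144.13 and KH.L144.14, and no other members had consecutive identifiers. KH.L144.12 had 103, 286 and 233 normalised reads in Bra+Foxa.a+Mnx, 172, 253 and 236 in Bra+Foxa.a, 234, 275 and 235 in Bra+Mnx, 380, 400 and 347 in Bra, and 704, 823 and 741 in control libraries. KH.L144.13 averaged 91.0 ± 34.5 in Bra+Foxa.a+Mnx, 99.7 ± 29.8 in Bra+Foxa.a, 115 ± 6.62 in Bra+Mnx, 158 ± 20.1 in Bra and 301 ± 66.8 in control libraries. KH.L144.14 averaged 179 ± 63.3 in Bra+Foxa.a+Mnx, 178 ± 41.2 in Bra+Foxa.a, 208 ± 33.3 in Bra+Mnx, 291 ± 46.9 in Bra and 515 ± 87.7 normalised reads in control libraries (SD, n = 3). In all 3 models the first Bra+Foxa.a+Mnx library was the lowest of the 15. Whether neighbouring models share reads was not tested.

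The members with the most reads in control were KH.C9.224, KH.C1.274, KH.L57.28 and KH.C11.102, and counting error is smallest there. KH.C9.224 had 1866, 1383 and 1294 normalised reads in Bra+Foxa.a+Mnx, 1908, 1359 and 1399 in Bra+Foxa.a, 2481, 1676 and 1273 in Bra+Mnx, 2932, 1955 and 1862 in Bra, and 4803, 3127 and 3108 in control libraries. The first library was the highest in every group, so the groups given Bra overlapped in level, and all their libraries were below all controls.

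KH.C1.274 averaged 1408 ± 159 normalised reads in Bra+Foxa.a+Mnx, 1483 ± 182 in Bra+Foxa.a, 1479 ± 159 in Bra+Mnx, 1967 ± 307 in Bra and 3515 ± 530 in control libraries (SD, n = 3). KH.L57.28 averaged 1134 ± 182 in Bra+Foxa.a+Mnx, 1130 ± 120 in Bra+Foxa.a, 1374 ± 260 in Bra+Mnx, 1549 ± 98.6 in Bra and 2751 ± 160 in control. KH.C11.102 averaged 1061 ± 31.4 in Bra+Foxa.a+Mnx, 1119 ± 33.3 in Bra+Foxa.a, 1203 ± 174 in Bra+Mnx, 1393 ± 98.8 in Bra and 2199 ± 246 in control. In these last 3 models Bra was again the highest of the groups given Bra, and its libraries stayed below all controls.

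**Figure D2:**
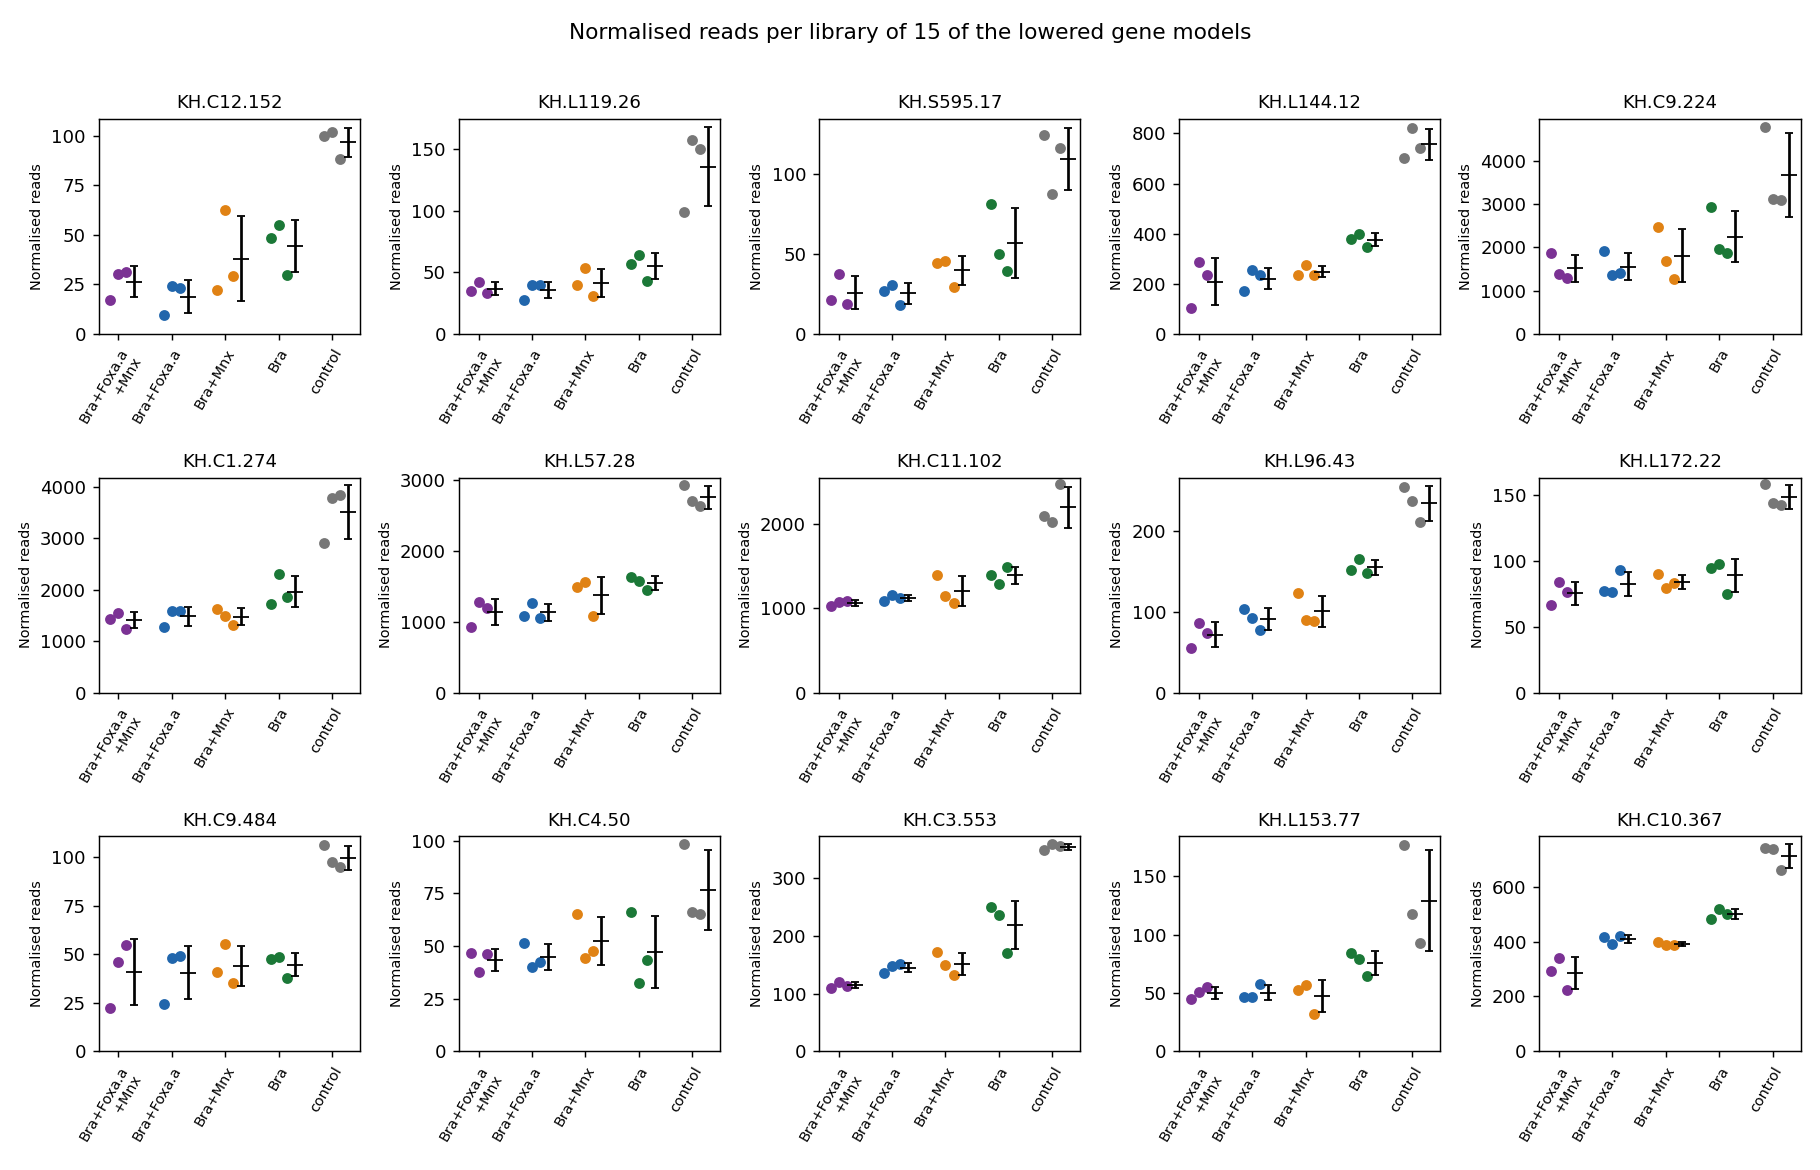
Normalised reads per library (vertical axes, linear from 0) of 15 named members in Bra+Foxa.a+Mnx, Bra+Foxa.a, Bra+Mnx, Bra and control embryos. Points are libraries in the order of their replicate numbers, and the black line and bar are the mean and SD of 3. In KH.C3.553 the Bra+Foxa.a+Mnx libraries lie between 110 and 120, below every library of the other groups, while in KH.C4.50 the groups given Bra overlap.

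The groups given Bra were then compared with one another. The rule did not use the differences between these groups, but it bounded each of their libraries against control. A Bra library lay nearest to the limit in 60 members. The comparisons below are therefore not free of the selection, and the gene models set beside the members passed no such limit. Among the 4 group means, Bra was the highest in 65 members and Bra+Mnx in 3. Bra+Foxa.a+Mnx was the lowest in 47, Bra+Foxa.a in 20 and Bra+Mnx in 1. The order Bra, Bra+Mnx, Bra+Foxa.a, Bra+Foxa.a+Mnx from high to low was found in 38 members, and the same order with the last 2 groups exchanged in 18. These counts of order were not taken over all gene models. Each comparison was tested with limma over 15 libraries and 14260 genes with Benjamini-Hochberg adjustment. As the replicate numbers pair the samples, the same fit with the number as a block is given where it changed the result.

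With both partners added to Bra, all 68 members had a lower mean than with Bra alone, against 47.2% of gene models that reached the control minimum. The median log2 fold change of Bra+Foxa.a+Mnx over Bra was -0.56 over the members and 0.00 over all genes tested, with members between -1.13 and -0.07. In 58 members the Bra+Foxa.a+Mnx library was below the Bra library in 3 of 3 numbers, as in 17.0% of gene models that reached the control minimum. The limma test called 5 members lower, where 0.456% of all genes were called lower, and 39 members had an unadjusted p under 0.05. Counts at an unadjusted p, and counts by edgeR and DESeq2, are given here and below without a share of all genes. So are counts of members called with a library left out. Nothing is read from them. With the replicate block 36 members were called lower, where 3.96% of all genes were. These comparisons of Bra groups share libraries with each other and are not independent.

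KH.L96.43 and KH.C3.553 had the largest fold changes of those 5. KH.L96.43 had 54.8, 86.0 and 74.2 normalised reads in Bra+Foxa.a+Mnx, 104, 92.0 and 77.6 in Bra+Foxa.a, 123, 89.5 and 88.9 in Bra+Mnx, 151, 165 and 149 in Bra, and 255, 237 and 211 in control libraries. Every group with a partner was below every Bra library. The log2 fold change of Bra+Foxa.a+Mnx over Bra was -1.13 ± 0.20 (limma, adjusted p = 0.0223; 2.71e-04 with the replicate block).

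KH.C3.553 had 110, 120 and 113 normalised reads in Bra+Foxa.a+Mnx, 136, 148 and 151 in Bra+Foxa.a, 172, 150 and 133 in Bra+Mnx, 249, 236 and 171 in Bra, and 348, 359 and 355 in control libraries. The Bra+Foxa.a+Mnx libraries lay below all others, with a log2 fold change over Bra of -0.91 ± 0.16 (limma, adjusted p = 0.0194; 1.37e-04 with the block). Without the block, both calls depended on single libraries. The call of KH.L96.43 was lost without any one of Bra 1, 2 or 3 or Bra+Foxa.a+Mnx 1 or 3 (adjusted p up to 0.0986). That of KH.C3.553 was lost without Bra 1 or 2 or Bra+Foxa.a+Mnx 1 or 3 (up to 0.0923).

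The other calls were KH.C5.485, KH.C10.367 and KH.C13.22, named here after their values were seen. KH.C10.367 had 293, 339 and 225 normalised reads in Bra+Foxa.a+Mnx, 416, 392 and 421 in Bra+Foxa.a, 400, 386 and 387 in Bra+Mnx, 482, 518 and 500 in Bra, and 740, 737 and 662 in control libraries. Its libraries formed separate steps: Bra+Foxa.a+Mnx lowest, the groups with 1 partner together, then Bra, then control. Bra+Foxa.a+Mnx over Bra was -0.82 ± 0.13 (limma, adjusted p = 0.0121). KH.C5.485 averaged 597 ± 72.0 in Bra+Foxa.a+Mnx and 1111 ± 236 in Bra (adjusted p = 0.0423 in limma), and KH.C13.22 averaged 126 ± 22.0 and 222 ± 30.1 (adjusted p = 0.0353 in limma; SD, n = 3).

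The count of 5 ranged from 1 to 7 when a library was left out. It was 2 without Bra 1, 1 without Bra 2, 2 without Bra 3, 3 without Bra+Foxa.a 2, 3 without Bra+Mnx 2, 1 without Bra+Foxa.a+Mnx 1 and 1 without Bra+Foxa.a+Mnx 3. With the block the 36 ranged from 21 to 39, with 22 without Bra 1 and 21 without Bra+Foxa.a+Mnx 1.

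With Foxa.a alone added to Bra, all 68 members had a lower mean in Bra+Foxa.a than in Bra, against 53.7% of gene models that reached the control minimum. The median log2 fold change was -0.53 (-0.01 over all genes), with a range of -1.25 to -0.03. The Bra+Foxa.a library was below the Bra library in 3 of 3 numbers in 59 members, against 16.1% of gene models. No member passed in limma (0 called; 0.0771% of all genes were called lower), with 37 at an unadjusted p under 0.05 and a lowest adjusted p of 0.121. edgeR also called 0 and DESeq2 called 3. With the block limma called 34 members lower, where 2.43% of all genes were called. That count was 13 without Bra 1, 13 without Bra+Foxa.a 1 and 20 without Bra+Foxa.a 2.

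KH.C12.152, whose reads are given above, had the largest fold change of Bra+Foxa.a over Bra, -1.25 ± 0.42 (limma, adjusted p = 0.459; 0.0211 with the block), and was at -0.83 without Bra+Foxa.a 1. The lowest adjusted p with the block was that of KH.C6.185, named after its values were seen. It had 334, 572 and 383 normalised reads in Bra+Foxa.a+Mnx, 403, 544 and 470 in Bra+Foxa.a, 534, 591 and 446 in Bra+Mnx, 700, 987 and 624 in Bra, and 1160, 1564 and 1306 in control libraries. Its replicate numbers moved together, with the second library the highest in every group. The log2 fold change of Bra+Foxa.a over Bra was -0.69 with a standard error of 0.21 without the block and 0.10 with it, and the limma adjusted p was 0.362 and 5.91e-04.

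With Mnx alone added to Bra, the mean was lower than with Bra in 65 members, against 50.0% of gene models that reached the control minimum. The median log2 fold change was -0.34 (0.00 over all genes), with a range of -0.71 to 0.18. Without Bra+Mnx 3 the median was -0.23 and 53 members were below 0. In 46 members the Bra+Mnx library was lower in 3 of 3 numbers, against 14.8% of gene models. In limma 0 members passed (0.014% of all genes were called lower), as did edgeR and DESeq2, and 15 members had an unadjusted p under 0.05. With the block 4 were called, where 0.835% of all genes were: KH.C6.185, KH.L172.15, KH.S1066.3 and KH.C9.224, named after their values were seen. Their limma adjusted p with the block ran from 0.0135 to 0.0425, and their log2 fold changes from -0.57 to -0.34.

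The lowest fold change of Bra+Mnx over Bra was that of KH.L153.77, which had 52.7, 57.3 and 31.7 normalised reads in Bra+Mnx and 84.5, 79.1 and 64.3 in Bra libraries. The log2 fold change was -0.71 ± 0.27, which did not pass (limma, adjusted p = 1.000; 0.154 with the block) and was -0.45 without Bra+Mnx 3. KH.C4.50 was the furthest above 0, at 0.18 ± 0.27, with 65.4, 44.2 and 47.5 in Bra+Mnx and 65.9, 32.6 and 43.2 in Bra libraries. These groups overlapped, and the fold change was -0.05 without Bra 2.

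When Foxa.a was added to Bra+Mnx, the mean was lower in 66 members, against 49.2% of gene models that reached the control minimum. The median was -0.26 (0.00 over all genes), and 21 members were lower in 3 of 3 numbers, against 12.9% of gene models. By number the median was -0.67, -0.13 and 0.02, so the pair of libraries numbered 3 showed no reduction. Without Bra+Foxa.a+Mnx 1 the median was -0.14 and 49 members were below 0. None passed in limma (0 members; 0.021% of all genes; 6 members at an unadjusted p under 0.05; 0 by edgeR and DESeq2). With the block it called KH.C10.367, KH.C12.562 and KH.C13.22, named after their values were seen, where 0.764% of all genes were called. The range of members ran from KH.C1.498 at -0.69 ± 0.35 (limma, adjusted p = 1.000; 0.308 with the block) to KH.L153.77 at 0.13 ± 0.27. The value of KH.C1.498 was -0.25 without Bra+Foxa.a+Mnx 1, and that of KH.L153.77 was -0.13 without Bra+Mnx 3.

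When Mnx was added to Bra+Foxa.a, the median was near 0. It was -0.07 (0.01 over all genes), and 48 members were below 0, against 41.6% of gene models that reached the control minimum. In 3 of 3 numbers 14 members were lower, against 11.98% of gene models. The median was 0.09 without Bra+Foxa.a+Mnx 1, so the direction rests on that library. It was -0.14 without Bra+Foxa.a 1, -0.02 without Bra+Foxa.a 2 and -0.18 without Bra+Foxa.a+Mnx 2. The limma test called 0 members (0.217% of all genes; 3 at an unadjusted p under 0.05), edgeR 0 and DESeq2 1. With the block it called KH.C10.367 and KH.L92.2 (1.79% of all genes), KH.L92.2 being named after its values were seen. KH.C10.367 was the most reduced, at -0.54 ± 0.13 (limma, adjusted p = 0.198; 0.00629 with the block), and all its Bra+Foxa.a+Mnx libraries were below its Bra+Foxa.a libraries. KH.C12.152 was the furthest above 0, at 0.52 ± 0.42 (limma, adjusted p = 1.000), and at 0.10 without Bra+Foxa.a 1.

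Bra+Foxa.a was below Bra+Mnx in the mean of 60 members, against 54.3% of gene models that reached the control minimum. The median was -0.18 (-0.01 over all genes), and 20 members were lower in 3 of 3 numbers. By number the median was -0.44, -0.20 and 0.08, so the pair of libraries numbered 3 showed no reduction. The median was -0.08 with 44 members below 0 without Bra+Mnx 1, -0.12 with 48 without Bra+Foxa.a 1, and -0.28 with 65 without Bra+Mnx 3. The count of 20 stands beside 25.6% of all gene models, so it is near the background. None passed in limma (0 members; 0.0701% of all genes; 4 at an unadjusted p under 0.05; 0 by edgeR and DESeq2). With the block it called KH.C7.391, named after its values were seen, where 1.27% of all genes were called. KH.C7.391 had 84.7, 93.9 and 63.5 normalised reads in Bra+Foxa.a, against 130, 145 and 121 in Bra+Mnx libraries, without overlap. KH.C12.152 had the largest fold change, -0.95 ± 0.42 (limma, adjusted p = 0.950; 0.103 with the block), and KH.C8.175 was furthest above 0, at 0.27 ± 0.37. The value of KH.C12.152 was -0.53 without Bra+Foxa.a 1 or without Bra+Mnx 2, and that of KH.C8.175 was 0.02 without Bra+Mnx 3.

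**Figure D3:**
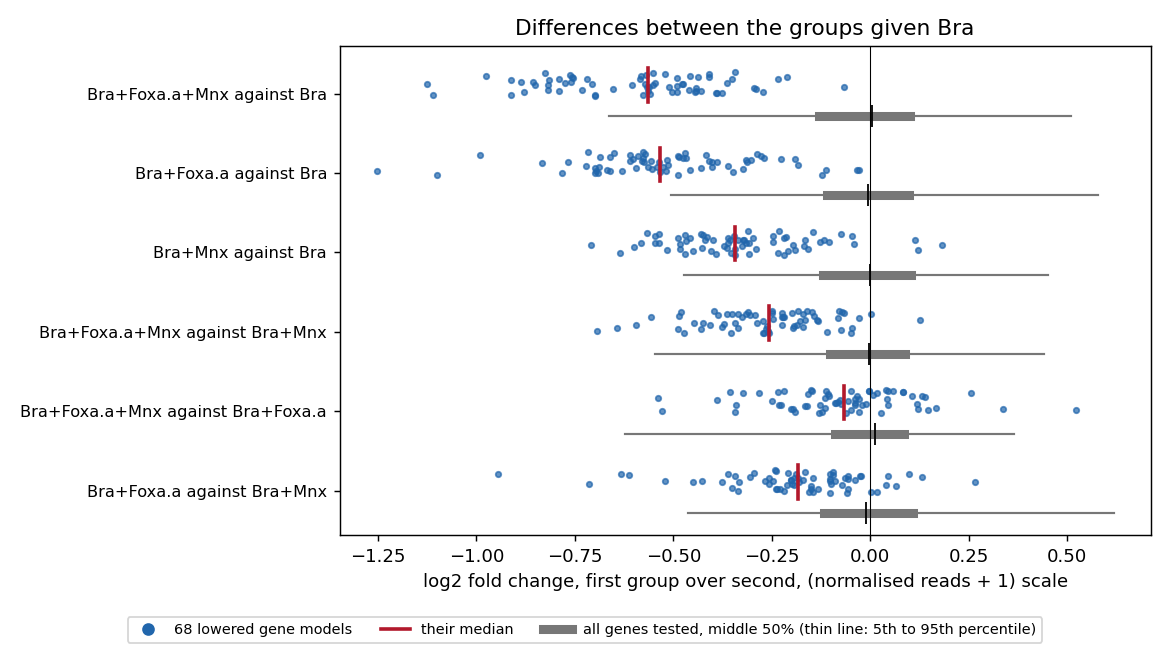
Log2 fold change of each of the 68 gene models (blue points; red line, their median) in the 6 comparisons between groups given Bra, first group over second. The grey bar and line below show the middle 50% and the 5th to 95th percentile of all 14260 genes tested. The member medians are -0.56, -0.53 and -0.34 in the comparisons with Bra, and -0.07 for Bra+Foxa.a+Mnx against Bra+Foxa.a.

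The interaction term asked whether both partners together differed from the sum of the log2 effects of each. It was above 0 in 57 members and below 0 in 11, with a median of 0.27 (0.01 over all genes). The median was 0.10 without Bra+Mnx 3 and 0.14 without Bra+Foxa.a+Mnx 2. A value above 0 means that the combined reduction was smaller than the sum. The limma test called 0 members with or without the block, and 0% and 0.00701% of all genes. Without the block 1 member had an unadjusted p under 0.05, and 14 had with it. The lowest adjusted p was 1 without the block and 0.422 with it. The extremes were KH.C12.152 at 0.83 ± 0.60 and KH.C9.811 at -0.26 ± 0.39 (limma, adjusted p = 1 for both). Without 1 library they were as low as 0.41 (without Bra+Foxa.a 1) for KH.C12.152 and as near 0 as -0.02 (without Bra+Foxa.a+Mnx 1) for KH.C9.811.

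No member was called higher in any of the 6 comparisons, with or without the block. Of all 14260 genes tested, 2 to 55 were called higher per comparison without the block and 55 to 430 with it. The count of 0 is near that background, and nothing is read from it. Over the 6 comparisons with the block, 41 members were called lower in at least 1 and 27 in none, and 6.38% of all genes were called lower in at least 1. Some members differed little between the groups given Bra. KH.L172.22 had 66.3, 83.6 and 76.3 normalised reads in Bra+Foxa.a+Mnx, 77.0, 76.7 and 92.7 in Bra+Foxa.a, 90.0, 79.4 and 82.8 in Bra+Mnx, 94.7, 97.7 and 74.8 in Bra, and 159, 144 and 142 in control libraries. The 4 groups given Bra overlapped and all lay below control. KH.C9.484 averaged 41.0 ± 16.9 in Bra+Foxa.a+Mnx, 40.6 ± 13.9 in Bra+Foxa.a, 43.8 ± 10.3 in Bra+Mnx, 44.7 ± 5.92 in Bra and 99.7 ± 6.09 normalised reads in control libraries (SD, n = 3). KH.C4.50 averaged 43.5 ± 5.13 in Bra+Foxa.a+Mnx, 44.7 ± 6.03 in Bra+Foxa.a, 52.4 ± 11.4 in Bra+Mnx, 47.2 ± 17.0 in Bra and 76.7 ± 19.1 in control libraries. In both, the ranges of the 4 groups given Bra overlapped. In KH.C9.484 they all lay below control. In KH.C4.50 the first Bra and the first Bra+Mnx library, at 65.9 and 65.4, were above the lowest control, at 65.2.

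The median spread between replicates was larger for the members than for all gene models that reached the control minimum in each group. The sets were not matched for read level, and what this adds to the gap was not tested. The members' median SD on the log2 scale was 0.283 in Bra+Foxa.a+Mnx (0.164 over all gene models that reached the control minimum), 0.240 in Bra+Foxa.a (0.185), 0.328 in Bra+Mnx (0.191), 0.238 in Bra (0.223) and 0.208 in control libraries (0.183).  The median difference from control was -1.59, -1.12 and -1.19 in Bra+Foxa.a+Mnx, -1.33, -1.14 and -1.19 in Bra+Foxa.a libraries, -0.88, -0.92 and -1.30 in Bra+Mnx libraries, and -0.66, -0.65 and -0.79 in Bra libraries 1 to 3. The first Bra+Foxa.a+Mnx library and the third Bra+Mnx library were thus the lowest of their groups.

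Reads of the electroporated genes, from plasmid and genome together, are set beside these values. Names were paired with identifiers by hand and not checked against an annotation. Bra (KH.S1404.1) had 1550, 1618 and 1454 normalised reads in Bra+Foxa.a+Mnx, 1202, 1332 and 1090 in Bra+Foxa.a libraries, 1083, 1279 and 1243 in Bra+Mnx libraries, and 963, 1449 and 798 in Bra libraries, against a mean of 653 ± 124 in control (SD, n = 3). The group with the most Bra reads was also the group with the lowest members, while the second Bra library had more Bra reads than any Bra+Foxa.a or Bra+Mnx library and a smaller reduction than all of them. Mnx (KH.L128.12) had 1468, 1453 and 2950 normalised reads in Bra+Mnx libraries 1 to 3, so the library with the most Mnx reads was the one with the lowest members in that group. This also held within Bra+Foxa.a+Mnx (2798, 2204 and 2252), but not within Bra+Foxa.a (224, 343 and 278) or Bra (366, 448 and 403). Control libraries had a mean of 483 ± 78.9 (SD, n = 3). Bra+Foxa.a had the fewest Mnx reads of the groups given Bra, and lower members than Bra+Mnx. Foxa.a (KH.C11.313) had 14950, 13250 and 13405 normalised reads in Bra+Foxa.a+Mnx, 11928, 11675 and 12460 in Bra+Foxa.a libraries, 8036, 7698 and 9953 in Bra+Mnx libraries, 6792, 8334 and 6531 in Bra libraries, and 5304, 5853 and 5473 in control libraries. Its group means ran opposite to the medians of the members, also between Bra+Mnx and Bra, which carry no Foxa.a plasmid (log2 fold change 0.25; limma, adjusted p = 1.000; 0.2998 with the block), and within Bra+Mnx the library with the most Foxa.a reads had the lowest members. The same was so within Bra+Foxa.a+Mnx, but not within Bra+Foxa.a or Bra. The third Bra+Foxa.a library had the most Foxa.a reads of its group, and a median of -1.19 against -1.33 in the first. The second Bra library had the most Foxa.a reads of its group and the smallest reduction, -0.65. The part of these levels in the differences between groups was not tested.

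**Figure D4:**
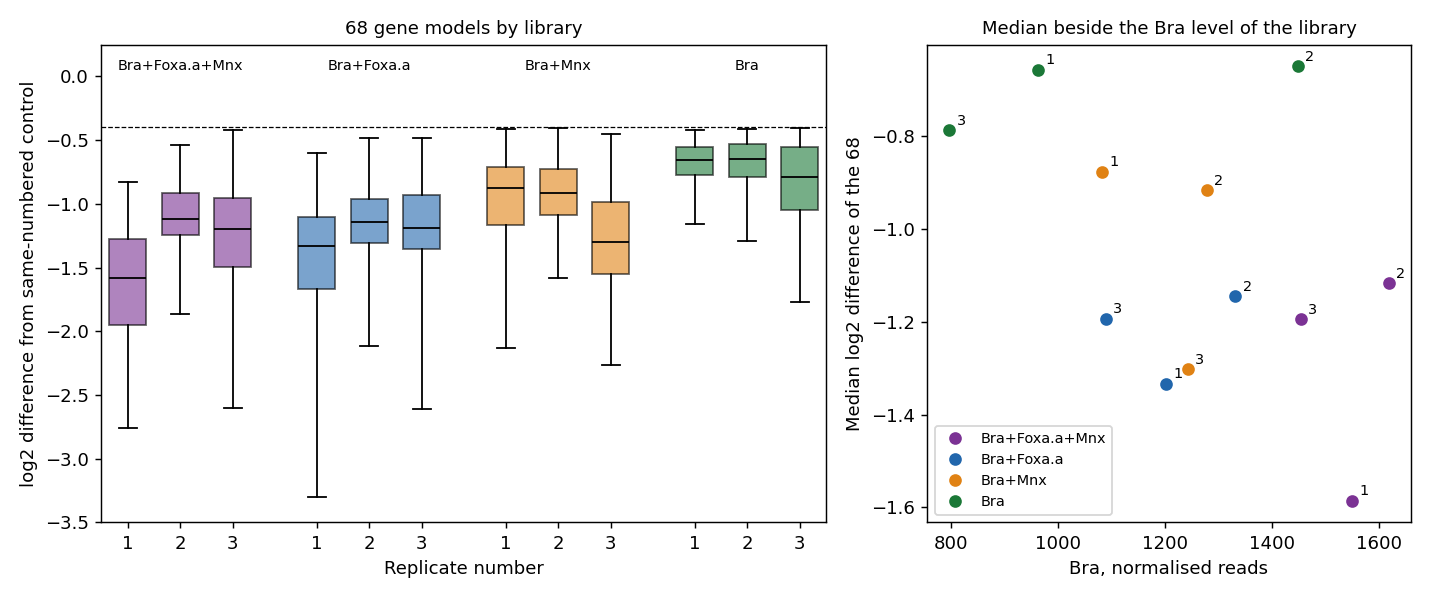
Left, log2 difference from the same-numbered control of the 68 gene models in each library given Bra (box, middle 50%; line, median; whiskers, lowest and highest; dashed line, the limit of -0.4). Right, the median of each library against its normalised reads of Bra, with replicate numbers beside the points. The Bra libraries have medians of -0.66, -0.65 and -0.79 at 963, 1449 and 798 reads of Bra, and the first Bra+Foxa.a+Mnx library has -1.59 at 1550.

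The driver's own gene moved with the set. Celf3/4/5/6 (KH.C6.128), which is the Etr gene and encodes a neural RNA-binding protein, had 3530 ± 507 normalised reads in Bra+Foxa.a+Mnx, 3934 ± 503 in Bra+Foxa.a, 4149 ± 305 in Bra+Mnx, 5650 ± 597 in Bra and 9522 ± 953 in control libraries (SD, n = 3). It is 1 of the 7 left-out neural models, with Neurog, a proneural factor, Ebf, Pou4 and Islet, factors of neuronal differentiation, Otx, a homeodomain factor of the anterior brain, and Tyr, the pigment enzyme tyrosinase. Their median log2 fold change was -0.68 for Bra+Foxa.a+Mnx over Bra, -0.53 for Bra+Foxa.a over Bra and -0.44 for Bra+Mnx over Bra, beside -0.56, -0.53 and -0.34 for the members. All 7 were below 0 in these 3 comparisons. Celf3/4/5/6, Neurog, Ebf and Tyr met the numeric rule of the members, so they are not a separate set in that respect. Otx, Pou4 and Islet did not meet it. The limma test called 4 of the 7 lower for Bra+Foxa.a+Mnx over Bra and 0 in the other 2 comparisons. With the block it called 6 for Bra+Foxa.a+Mnx, 6 for Bra+Foxa.a and 2 for Bra+Mnx over Bra. The member KH.L24.11 is next to Ebf (KH.L24.10) by identifier, and averaged 198 ± 13.1 in Bra+Foxa.a+Mnx, 229 ± 35.8 in Bra+Foxa.a, 260 ± 52.3 in Bra+Mnx, 346 ± 61.3 in Bra and 560 ± 131 normalised reads in control libraries (SD, n = 3). Whether the lower reads of the members and of the neural models have a common source was not tested.

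The other named models served as markers of further tissues. The notochord T-box gene Tbx2/3 (KH.L96.87) averaged 3759 ± 133 normalised reads in Bra+Foxa.a+Mnx, 3628 ± 267 in Bra+Foxa.a, 3207 ± 234 in Bra+Mnx, 3129 ± 635 in Bra and 2428 ± 249 in control libraries (SD, n = 3). Bra+Foxa.a+Mnx over Bra was 0.28 on the log2 scale (limma, adjusted p = 0.696; 0.0466 with the block), and no other comparison between its groups given Bra passed. Msx (KH.C2.957), a homeodomain factor on the neural list that the rule does not leave out, averaged 1127 ± 321 in Bra+Foxa.a+Mnx, 1465 ± 419 in Bra+Foxa.a, 1178 ± 335 in Bra+Mnx, 1561 ± 407 in Bra and 1442 ± 417 in control libraries, with ranges that all overlapped. Within replicate numbers it was lower in 3 of 3 for Bra+Foxa.a+Mnx and for Bra+Mnx against Bra. The log2 fold changes over Bra were -0.47 with all 3 factors and -0.41 with Bra+Mnx, and -0.37 for Bra+Foxa.a+Mnx over Bra+Foxa.a. These passed in limma with the block (adjusted p = 0.00172, 0.0239 and 0.0264 in that order of comparisons) and not without it (1.000 each). Mrf (KH.C14.307), the muscle regulator, averaged 1778 ± 248 in Bra+Foxa.a+Mnx, 1752 ± 154 in Bra+Foxa.a, 1758 ± 336 in Bra+Mnx, 2281 ± 185 in Bra and 2389 ± 154 in control libraries, so every library with a partner was below every Bra library, and Bra overlapped with control. In limma with the block Mrf was lower in Bra+Foxa.a+Mnx and in Bra+Foxa.a than in Bra (adjusted p = 0.0362 and 0.0370; 0.525 and 0.612 without it). The cardiac factor Nkx2-5 averaged 1964 ± 227 in Bra+Foxa.a+Mnx, 2313 ± 226 in Bra+Foxa.a, 1655 ± 157 in Bra+Mnx, 2197 ± 345 in Bra and 2299 ± 180 in control libraries. With the block it was lower in Bra+Mnx than in Bra and higher in Bra+Foxa.a than in Bra+Mnx (limma, adjusted p = 0.0388 and 0.00417; 1.000 and 0.182 without it). Foxf averaged 3049 ± 275 in Bra+Foxa.a+Mnx, 2853 ± 421 in Bra+Foxa.a, 2822 ± 254 in Bra+Mnx, 3089 ± 434 in Bra and 3413 ± 478 in control libraries, and no comparison between its groups given Bra passed with or without the block. Hand-r averaged 560 ± 142 in Bra+Foxa.a+Mnx, 570 ± 78.2 in Bra+Foxa.a, 457 ± 78.2 in Bra+Mnx, 452 ± 70.3 in Bra and 427 ± 88.2 in control libraries. With the block it was higher in Bra+Foxa.a+Mnx and in Bra+Foxa.a than in Bra, and in Bra+Foxa.a than in Bra+Mnx (limma, adjusted p = 0.0277, 0.0147 and 0.0200; 1.000 each without it).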

How the data were processed

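RNA of whole embryos was sequenced in 15 libraries (5 groups of 3), per the labels made with a stranded mRNA kit. TopHat2 2.9.8b and DESeq 1.8.1 were used, per the submitters' processing notes. Not given in the sources used here: genome build, read counter and strand handling. The authors deposited 4 tables, 1 per group given Bra, each with the control columns, whose values are a signal, read counts divided by a size factor. Dividing by the step of each column gave whole reads within a tolerance of 0.01, so reads were recovered, and 24 columns of log values were not used.

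For comparisons between groups given Bra, recovered reads were put on 1 scale by median-of-ratios size factors and log2(value + 1) was fitted with limma 3.58.1 (R 4.3.3, limma-trend, group only, 15 libraries, genes with a mean of at least 1, Benjamini-Hochberg, called at an adjusted p under 0.05). Differences from control were fitted in the same way within each deposited table, and described only. Fold changes on the log2(value + 1) scale are too small for genes with few reads. Same-numbered libraries of different groups, numbered in the sample titles, deviated together (30 pairs, r of 0.55 to 0.72; 60 other pairs, -0.44 to -0.12), so a replicate block was added as an alternative. These deviations were taken from the mean of a group's 3 libraries. Negative values in the other pairs therefore follow from positive ones in the same-numbered pairs. edgeR 4.0.16 and DESeq2 1.42.0 on recovered reads were further alternatives. The members, lists and tests were chosen with earlier results of these data known. Named members were the 4 with the lowest mean difference, the 4 with the most control reads, 3 on each side of the limit, the 3 with the most and the 3 with the least spread between groups, and in each comparison up to 2 called members per direction, or the extreme where fewer were called.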

Additional observations from a re-analysis of the deposited data

How the results depend on the processing

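The count of members was 109 at a limit of -0.3 and 42 at -0.5, and 18 when every library given Bra was set against every control. It was 84 to 116 with 1 replicate number left out. The members called lower in Bra+Foxa.a+Mnx against Bra were 16 with DESeq2 and 36 with the replicate block. They were 1 to 7 with a library left out and 0 with only the compared groups fitted. With the same-numbered control subtracted from each library, on each table's own scale, they were 0. Bra+Foxa.a against Bra gave 3 with DESeq2 and 34 with the block. The block gave 4 for Bra+Mnx against Bra, 3 for Bra+Foxa.a+Mnx against Bra+Mnx, 2 for Bra+Foxa.a+Mnx against Bra+Foxa.a (DESeq2 1) and 1 for Bra+Foxa.a against Bra+Mnx (edgeR with the block 2). With the block and a library left out, in the same order of comparisons, the counts were 21 to 39, 13 to 39, 0 to 13, 0 to 4, 0 to 2 and 0 to 7. Those for the first comparison included 22 without Bra 1, and for the second 20 without Bra+Foxa.a 2. Counts of members called with a library left out, or in settings other than the block, stand here without a share of all genes. Nothing is read from them. Values that changed sign without a library were the median of Bra+Foxa.a+Mnx against Bra+Foxa.a (-0.181 to 0.0883), KH.C4.50 in Bra+Mnx against Bra (-0.0483 to 0.449) and KH.L153.77 in Bra+Foxa.a+Mnx against Bra+Mnx (-0.131 to 0.287). The cause of these changes was not tested.

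Over all genes the block moved the calls of Bra+Foxa.a+Mnx against Bra to 564 lower and 364 higher, against 65 and 55 without it, and those of Bra+Foxa.a against Bra to 347 and 326, against 11 and 31. The blocked leave-one-out and edgeR fits were chosen after seeing the data.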
